A study of Mus musculus with 4 samples.

Results

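The 10 genes described here carry glucose into the muscle fibre and keep it there: 4 facilitative transporters (Slc2a4, Slc2a1, Slc2a3 and Slc2a12), 4 genes of the vesicle traffic that brings the insulin-responsive transporter to the surface (Tbc1d4, Tbc1d1, Rab10 and Lnpep), and the hexokinases Hk1 and Hk2. They are 10 of 32868 gene names in the deposited per-library tables, each with a single row, and all 10 passed the filter on low values. Apart from Tbc1d4, 9 were taken for their role, though with earlier results of these data known. Tbc1d4 was chosen by its RPKM values in this same comparison, for their steep rise in the Nf1-KO libraries, so its values are given as a description without a test.

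Insulin acts on glucose uptake in muscle by moving GLUT4, the product of Slc2a4, from internal vesicles to the cell surface. The Rab GTPase-activating proteins TBC1D4 (also called AS160) and its paralog TBC1D1 hold these vesicles back by keeping Rab proteins such as RAB10 in their inactive form, and phosphorylation by Akt or AMPK lifts that brake. Lnpep encodes the insulin-regulated aminopeptidase that travels in the same vesicles, and hexokinase then traps the glucose that enters as glucose 6-phosphate. In rodents TBC1D4 is known as the more abundant paralog in oxidative muscle and TBC1D1 as the more abundant in fast glycolytic muscle.

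RNA came from a fast muscle of the lower leg, the tibialis anterior, of C57BL/6 mice at postnatal day 21. The 2 libraries labelled Het carried 1 floxed Nf1 allele (Nf1flox/+/Myf5+) and the 2 labelled Nf1-KO carried floxed alleles on both chromosomes (Nf1flox/flox/Myf5+). Both groups thus share the Myf5+ element and at least 1 floxed allele, and no library without a floxed allele was analysed here. Myf5 is a gene of muscle precursors and is known as a driver of Cre recombinase; the labels do not spell out the driver, and vessel, nerve and blood cells of the muscle lie mostly outside its lineage. The labels do not say whether the libraries of a group came from separate animals, so p-values here measure only the spread between these libraries.

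Values are RPKM, reads scaled to the length of the gene and the depth of the library, so levels of different genes can be set side by side. Single-read steps among low values put the depth of the Het libraries at 36500000 and 58100000 reads and that of the Nf1-KO libraries at 47000000 and 51000000 reads. Nf1 itself was 1.09 and 1.01 RPKM in Het and 0.89 and 0.85 RPKM in Nf1-KO, so the libraries labelled Nf1-KO were the lower ones (log2 fold change -0.18, limma adjusted p 0.041); without scaling the adjusted p was 0.094, and it ran from 0.062 to 0.16 when any 1 library was left out. In the authors' deposited table the log2 fold change of Nf1 was -0.38 (standard error 0.11) with an adjusted p of 0.0026. Of the 5 muscle fibre markers (Acta1, Ckm, Mb, Tnnt3 and Myh4) none was at 0. Their summed level was 43680 and 43780 RPKM in Het and 37320 and 37020 RPKM in Nf1-KO, with 4 of the 5 lower past the threshold and Mb higher. Over all 10690 genes tested, 50.3% passed a limma adjusted p under 0.05, 24.9% higher and 25.5% lower in Nf1-KO, so passing the test is common in this comparison. With values as deposited, not scaled between libraries, 3760 genes were higher and 1883 lower in place of 2661 and 2721, and the median gene moved up by 0.07 on the log2 scale.

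Promoters of the opposed paralogs Tbc1d4 and Tbc1d1 are shown because their transcripts moved in opposite directions. The RefSeq table (build GRCm38.p6) held 8 of the 10 genes; Slc2a4 and Slc2a3 had no entry. Each line gives the 250 bases before an annotated transcription start, 5′ to 3′ on the gene's strand, with E-boxes (CANNTG, where N is any base) and GC boxes (GGGCGG) on either strand in capitals. The Tbc1d4 window lies on the minus strand at chr14:101609192-101609441 and the Tbc1d1 window on the plus strand at chr5:64160010-64160259.
Tbc1d4: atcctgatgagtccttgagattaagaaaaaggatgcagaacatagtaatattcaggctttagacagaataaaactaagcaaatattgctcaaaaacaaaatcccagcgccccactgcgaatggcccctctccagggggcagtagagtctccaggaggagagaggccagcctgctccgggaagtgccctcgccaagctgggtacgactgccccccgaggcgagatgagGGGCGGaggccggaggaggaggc
Tbc1d1: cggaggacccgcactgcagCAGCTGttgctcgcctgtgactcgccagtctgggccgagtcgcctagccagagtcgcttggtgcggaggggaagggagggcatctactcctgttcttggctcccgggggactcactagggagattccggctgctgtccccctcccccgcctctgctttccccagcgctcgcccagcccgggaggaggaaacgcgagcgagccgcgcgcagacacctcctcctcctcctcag
The windows differ in base composition, with 54.8% G and C for Tbc1d4 and 68.4% for Tbc1d1, where the median of 32851 windows of that length in the table was 52.4%. The Tbc1d4 window held 1 GC box, starting 23 bases before the transcription start, and no E-box. The Tbc1d1 window held 1 E-box, starting 231 bases before the start, and no GC box. An E-box is found in 66.2% of all windows and a GC box in 32.7%. Neither window held the estrogen-related receptor element TNAAGGTCA (1.14% of all windows), the TATA box TATAAA (12.4%) or a MEF2 site (2.92%), searched on both strands, and E-boxes and GC boxes did not overlap in either. A further Tbc1d1 start in the table, downstream of the first, has a window with 4 GC boxes. The bases that follow this further start were not found near the beginning of any Tbc1d1 transcript of GENCODE M21, unlike those of the 2 windows shown. Such matches describe the letters of these windows.

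Tbc1d4 went from the minor to the major of the paralog pair. Its level was 3.40 and 3.45 RPKM in Het and 19.55 and 19.72 RPKM in Nf1-KO, a 5.73-fold higher mean. The groups did not overlap, as held for 77.3% of all tested genes in the values as deposited. In whole muscle, here and for every gene that follows, a change in the number of cells of a type and a change in RNA per cell cannot be told apart. On the log2(RPKM + 1) scale the difference, Nf1-KO minus Het, was 2.14 (2.39 with a pseudocount of 0.1, since the pseudocount of 1 shrinks low values). That was the 12th largest rise among the 10690 genes, and that rise is why the gene was chosen. The authors' deposited table put the log2 fold change at 2.41 (standard error, SE, 0.053), over a mean of 3876 normalized counts.

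Tbc1d1 moved the other way. It was 18.31 and 17.36 RPKM in Het and 8.96 and 8.55 RPKM in Nf1-KO, a ratio of means of 0.491, and both Nf1-KO libraries lay below both Het libraries. The log2 fold change was -1.04 (SE 0.042, limma adjusted p 8.1e-06). It stayed lower and past the threshold under all 13 alternative settings, with log2 fold changes from -1.11 to -0.95. The authors' deposited table gave -1.13 (SE 0.052), over a mean of 3783 normalized counts.

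The pair can also be compared within each library, where scaling between libraries plays no part. The ratio of Tbc1d4 to Tbc1d1 was 0.186 and 0.199 in Het and 2.18 and 2.31 in Nf1-KO, an 11.7-fold higher geometric mean; it is a description, since the rise of Tbc1d4 chose the gene. The summed signal of both genes was 21.7 and 20.8 RPKM in Het and 28.5 and 28.3 RPKM in Nf1-KO. Tbc1d4 made up 15.7% and 16.6% of that sum in Het against 68.6% and 69.8% in Nf1-KO. The sum thus changed less than either gene did. In the same libraries Myh4, the myosin heavy chain of the fastest fibres, was 6767 and 7015 RPKM in Het and 3508 and 3428 RPKM in Nf1-KO. Myh4 is named outside the rule for named genes, and its log2 fold change of -1.08 was the largest of the 5 muscle fibre markers. Acta1 was at -0.45, Tnnt3 at -0.29, Ckm at -0.17 and Mb at 0.71. Whether the paralogs follow fibre type in these samples was not tested.

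**Figure D1:**
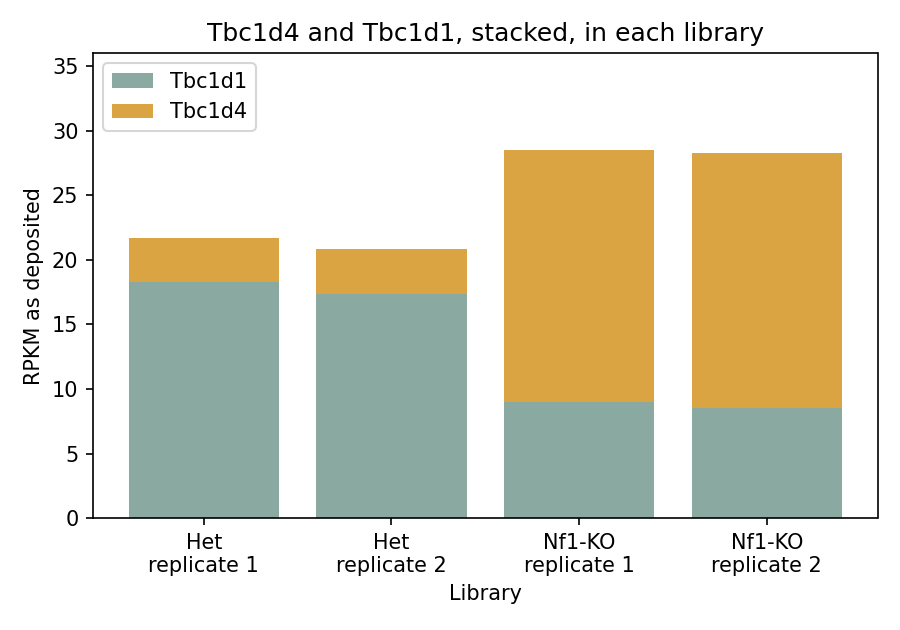
RPKM as deposited of Tbc1d1 (lower part of each bar) and Tbc1d4 (upper part) in each of the 4 libraries. Tbc1d4 is the smaller part in both Het libraries (15.7% and 16.6% of the pair) and the larger part in both Nf1-KO libraries (68.6% and 69.8%).

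Of the 9 genes other than Tbc1d4, 6 passed the test over all genes, 2 higher (Slc2a1 and Lnpep) and 4 lower (Slc2a4, Slc2a3, Tbc1d1 and Rab10), beside 24.9% of all tested genes higher and 25.5% lower. Slc2a3 reached the filter of 0.5 RPKM in Het only, where it is high, and so had to differ; without it 5 of 8 passed, 2 higher and 3 lower. Unscaled, 3 of the 9 were higher and 2 lower. In the values as deposited, the groups did not overlap for 6 of the 9, where 77.3% of all tested genes showed no overlap. After scaling this held for 8 of the 9, beside 76.3% of all tested genes. The authors' deposited table passed 5 of the 9 at an adjusted p under 0.05, beside 31.7% of its 13984 genes. By the ratio of group means, Slc2a3 and Tbc1d1 showed the largest differences of the 9.

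**Figure D2:**
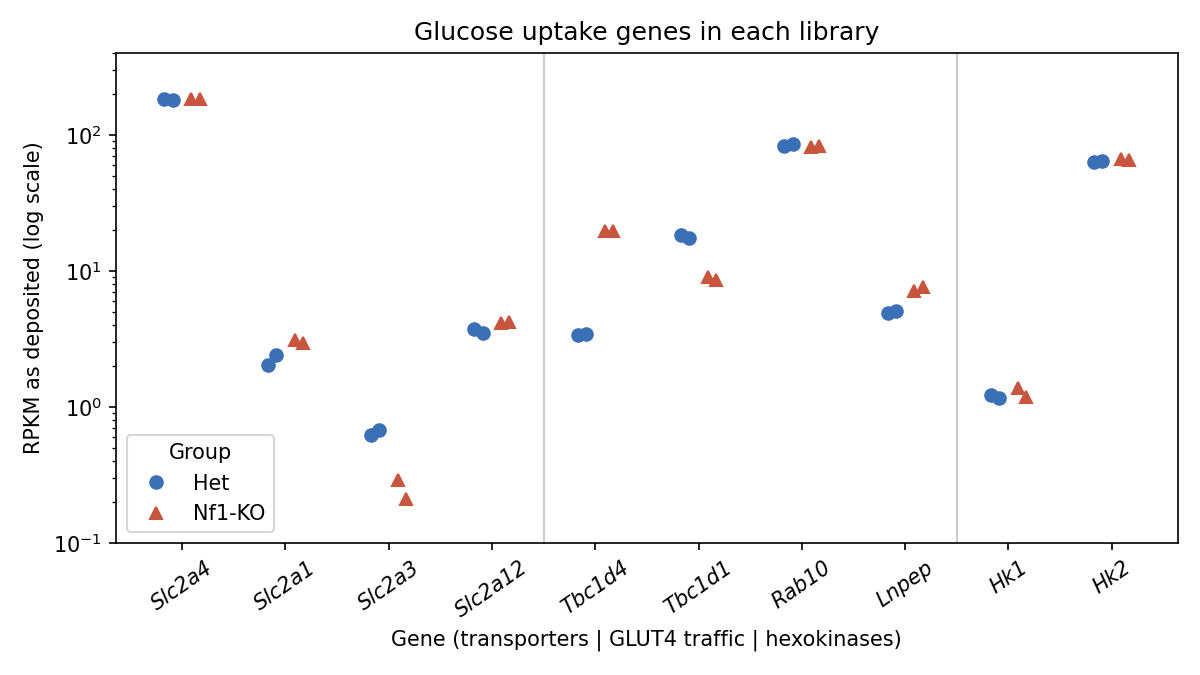
RPKM as deposited on a log axis for each of the 10 genes, with circles for the 2 Het libraries and triangles for the 2 Nf1-KO libraries. Slc2a4, Rab10 and Hk2 sit above 60 RPKM in every library with groups close together, while Tbc1d4, Tbc1d1 and Slc2a3 show the widest gaps between the groups.

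Slc2a4, which encodes GLUT4, was the most abundant of the 10 genes in every library. It was 182.82 and 178.99 RPKM in Het and 184.51 and 182.09 RPKM in Nf1-KO as deposited, and these values overlapped. After scaling they were 188.8 and 185.1 against 178.8 and 175.9, a difference of -0.08 on the log2 scale (SE 0.021, limma adjusted p 0.024). The direction depends on the scaling: unscaled, the log2 fold change was 0.02 (limma adjusted p 0.47). The call also ended with median scaling (-0.05, limma adjusted p 0.08), without a variance trend (0.15), and without Het replicate 1 (-0.06, 0.091), Nf1-KO replicate 1 (-0.09, 0.056) or Nf1-KO replicate 2 (-0.06, 0.12). In the authors' deposited table the log2 fold change was -0.087 (SE 0.023) with an adjusted p of 8.5e-04, which passes. On either scale the level of Slc2a4 differed by less than 10% between the groups' means.

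Slc2a1 encodes GLUT1, the transporter of basal uptake, which is abundant in vessel and nerve sheath cells as well. It was 2.02 and 2.39 RPKM in Het and 3.08 and 2.93 RPKM in Nf1-KO, 1.36-fold higher in the mean, with no overlap. The log2 fold change was 0.26 (SE 0.071, limma adjusted p 0.024). The call was not firm: the limma adjusted p was 0.11 with no filter, 0.1 without Het replicate 1, 0.12 without Nf1-KO replicate 1 and 0.07 without Nf1-KO replicate 2. In the authors' deposited table the log2 fold change was 0.335 (SE 0.165) with an adjusted p of 0.113, over a mean of 316 normalized counts. An exon of Slc2a1 overlaps Gm12868 on the opposite strand, a gene with no row in the tables used here. The ratio of Slc2a1 to Slc2a4 within each library was 0.0111 and 0.0134 in Het and 0.0167 and 0.0161 in Nf1-KO, and the exact two-sided permutation p was 0.333, the smallest that 2 libraries against 2 allow.

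Markers of cells other than muscle fibres that can carry these transcripts were summed in each library. The counts past the threshold that follow stand beside 24.9% of all tested genes higher and 25.5% lower. The summed level of 6 endothelial markers was 71.7 and 72.1 RPKM in Het and 77.7 and 76.6 RPKM in Nf1-KO, with 2 higher and 1 lower past the threshold. That is 50.0% called, beside 50.3% of all tested genes. The 6 Schwann cell markers summed to 15.7 and 16.1 RPKM against 35.96 and 34.52 RPKM, with all 6 higher. For 6 macrophage and leukocyte markers the sums were 8.67 and 8.98 against 27.9 and 27.9 RPKM, with 3 of 3 tested higher and Adgre1 listed at 0. Lyz2 made up most of these sums, at 7.47 and 7.38 against 24.35 and 24.62 RPKM. The 7 adipocyte markers summed to 8.29 and 9.47 against 20.02 and 20.6 RPKM, with 2 of 3 tested higher (Cfd and Cidec) and Ucp1 listed at 0. Most of that difference was Cfd, at 5.87 and 6.8 against 17.34 and 17.71 RPKM, while Adipoq was 1.11 and 1.31 against 0.95 and 1.05 RPKM and the means of Plin1 and Lep were also lower in Nf1-KO. The 4 fibroblast markers summed to 72.4 and 70.2 against 107.6 and 108.0 RPKM, with all 4 higher. Col1a1 carried most of that difference (10.7 and 10.69 against 35.85 and 36.07 RPKM). Dcn, the most abundant of them in each library, was 54.94 and 53.01 against 62.09 and 61.86 RPKM. The part of these cells in the values of Slc2a1, Tbc1d4 and the other genes was not tested.

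Slc2a3 encodes GLUT3, the high-affinity transporter known from neurons, platelets and leukocytes, and was the least abundant of the 10 genes. It was 0.62 and 0.68 RPKM in Het and 0.29 and 0.21 RPKM in Nf1-KO, a ratio of means of 0.385. The groups did not overlap, and the gene passed the filter of 0.5 RPKM only through the Het libraries. The log2 fold change was -0.43 (SE 0.063, limma adjusted p 0.0019). With a pseudocount of 0.1 it was -1.18 (limma adjusted p 0.0029) and with no filter -0.43 (0.012). The authors' deposited table gave -1.501 (SE 0.256), over a mean of 141 normalized counts. The 4 platelet markers summed to 1.24 and 1.4 RPKM in Het and 2.33 and 2.23 RPKM in Nf1-KO. Pf4 carried that sum (1.02 and 1.14 against 2.06 and 2.06 RPKM) and was the only one of the 4 that could be tested, while Ppbp was 0.15 and 0.22 against 0.18 and 0.13 RPKM. The part of platelets and leukocytes in the values of Slc2a3 was not tested.

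Slc2a12 encodes GLUT12, a further transporter of muscle and fat. It was 3.72 and 3.49 RPKM in Het and 4.12 and 4.21 RPKM in Nf1-KO. These groups do not overlap, but the log2 fold change of 0.09 (SE 0.05) did not pass (limma adjusted p 0.18); unscaled it was 0.17 and passed (0.032). An exon of Slc2a12 overlaps one of Tbpl1 on the opposite strand, whose mean was 3.83 RPKM, and use of strand in the counting is not given in the sources used here, so reads of the pair may not be separable. Slc2a4 made up 96.6% and 96.5% of the summed RPKM of the 4 transporters in Het and 96.1% in both Nf1-KO libraries. The other 10 sugar transporters listed (8 of the Slc2a family, with Slc5a1 and Slc5a2) were all below the filter, the highest single value being 0.28 RPKM for Slc2a9.

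Rab10, a Rab GTPase that TBC1D4 acts on, was 82.67 and 85.17 RPKM in Het and 81.93 and 82.87 RPKM in Nf1-KO as deposited, and the groups overlapped. Scaled, the log2 fold change was -0.12 (SE 0.024, limma adjusted p 0.0075). Unscaled it was -0.03 (limma adjusted p 0.4), and without a variance trend the adjusted p was 0.052. The authors' deposited table gave -0.134 (SE 0.029) with an adjusted p of 2.6e-05, which passes. The gene's exons overlap those of Rab10os, which is listed at 0.

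Lnpep, the vesicle aminopeptidase, was 4.92 and 5.06 RPKM in Het and 7.16 and 7.55 RPKM in Nf1-KO, 1.47-fold higher in the mean. The groups did not overlap. The log2 fold change was 0.40 (SE 0.045, limma adjusted p 5.9e-04), and it was called under all 13 alternatives (0.37 to 0.48). The authors' deposited table gave 0.451 (SE 0.064). Of the vesicle and Rab genes among the 10, Lnpep and Tbc1d4 were thus the higher ones.

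Hk2, the main hexokinase of insulin-sensitive muscle, was 63.27 and 64.34 RPKM in Het and 65.93 and 65.66 RPKM in Nf1-KO. The sign of its difference depended on scaling: the log2 fold change was -0.05 (SE 0.023, limma adjusted p 0.12) when scaled and 0.04 (0.14) as deposited. Hk1, the widely expressed hexokinase, was 1.22 and 1.16 RPKM in Het and 1.38 and 1.18 RPKM in Nf1-KO, which overlap (log2 fold change 0.0046, standard error 0.065, limma adjusted p 0.96). Hk2 made up between 97.95% and 98.23% of the summed hexokinase RPKM in the 4 libraries. The ratio of Hk1 to Hk2 overlapped between the groups, with a difference of 0.06 on the log2 scale and an exact two-sided permutation p of 1. Exons of Hk1 overlap those of Hk1os, listed at 0.

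**Figure D3:**
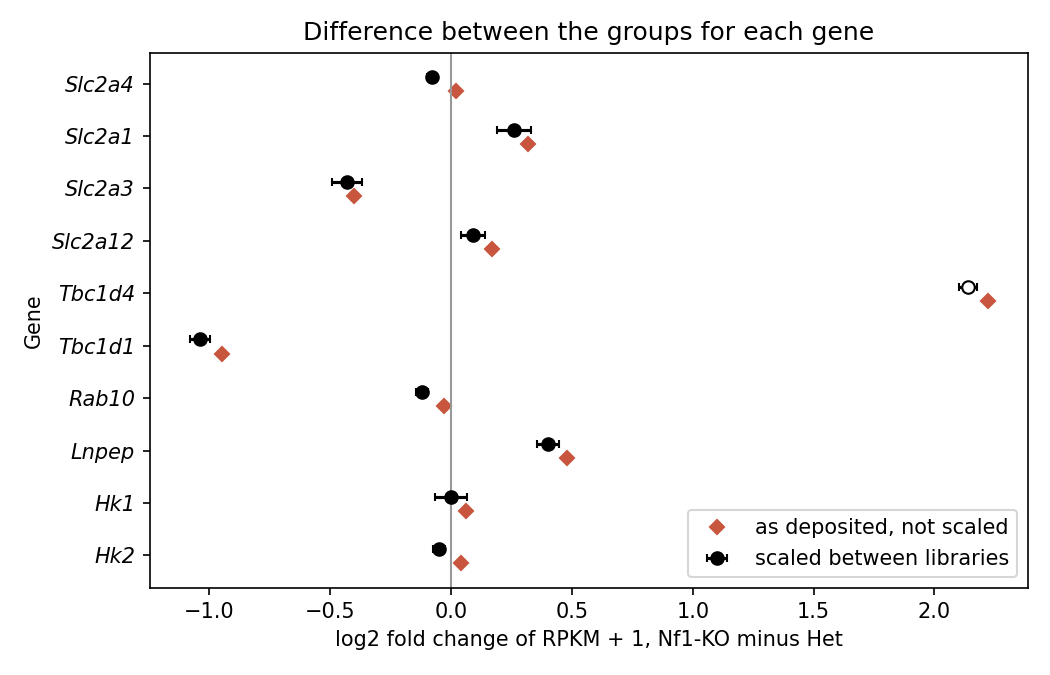
Log2 fold change of RPKM + 1, Nf1-KO minus Het, for each of the 10 genes: circles are values scaled between libraries with bars of 1 standard error (open for Tbc1d4, which was not tested), and diamonds are values as deposited. Tbc1d4 at 2.14 and Tbc1d1 at -1.04 stand far from 0 on both scales, whereas Slc2a4 and Hk2 fall on opposite sides of 0 depending on the scaling.

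Ordered by level in Het, the genes ran Slc2a4, Rab10, Hk2, Tbc1d1, Lnpep, Slc2a12, Tbc1d4, Slc2a1, Hk1 and Slc2a3. The closest neighbours were Slc2a12 and Tbc1d4, at 3.49 to 3.72 and 3.40 to 3.45 RPKM. In Nf1-KO the order was Slc2a4, Rab10, Hk2, Tbc1d4, Tbc1d1, Lnpep, Slc2a12, Slc2a1, Hk1 and Slc2a3. Tbc1d4 thus moved from rank 7 to rank 4 and was the only gene to pass others, since the remaining 9 kept their order among themselves. No 2 neighbours in either order had overlapping libraries, though with 2 libraries a group the ranges are narrow.

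The 5 genes whose pattern over the 4 libraries lay closest to that of Tbc1d4 were Idh2, Ldhb, Fkbp5, Postn and Nnt. Likeness was the Euclidean distance between log2(scaled RPKM + 1) values centred on each gene's mean, among 4825 other genes with a mean of at least 5 RPKM over the 4 libraries. Postn met that limit through Nf1-KO alone, at 1.32 and 1.07 RPKM in Het against 9.33 and 9.82 RPKM. The distances were 0.057 for Idh2, 0.119 for Ldhb, 0.12 for Fkbp5, 0.149 for Postn and 0.174 for Nnt. Ldhb, the lactate dehydrogenase subunit of oxidative tissues, was 86.57 and 84.54 RPKM in Het and 374.56 and 376.03 RPKM in Nf1-KO. Nnt, the mitochondrial transhydrogenase that makes NADPH, was 12.67 and 12.7 RPKM in Het and 56.87 and 55.27 RPKM in Nf1-KO. Idh2 was 82.63 and 80.35 RPKM in Het and 395.71 and 400.63 RPKM in Nf1-KO. For Fkbp5 the values were 5.67 and 5.52 against 27.9 and 27.25 RPKM. All 5 rose by between 1.97 and 2.20 on the log2 scale, where Tbc1d4 was at 2.14. Likeness was taken over these same libraries, so a rise close to that of Tbc1d4 was fixed by the choice.

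The other genes of the pathway were described through 8 lists of 135 genes in all, of which 107 were tested. Of these, 24 were higher and 29 lower past the threshold, 49.5% in all beside 50.3% of all tested genes. Unscaled the split turned to 37 higher and 22 lower. The scaled median log2 fold change of the 107 was -0.04 where that of all tested genes was 0.0.

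Of 18 tested genes from the insulin receptor to Akt, 7 were higher, 3 lower and 8 did not pass, 55.6% called beside 50.3% of all tested genes (24.9% higher and 25.5% lower). The list's median was 0.08 on the log2 scale. Pik3r1, the regulatory subunit of phosphoinositide 3-kinase, rose from 3.035 ± 0.0354 to 6.065 ± 0.0495 RPKM (SD, n = 2), a difference of 0.73 on the log2 scale (limma adjusted p 4.2e-05). Grb10, an adaptor that restrains the insulin receptor, rose from 3.525 ± 0.318 to 6.605 ± 0.318 RPKM. Irs1, the docking protein that links the receptor to the kinase, fell from 8.345 ± 0.219 to 5.105 ± 0.0919 RPKM, a difference of -0.70 on the log2 scale (limma adjusted p 4.3e-05). Outside the rule for named genes, and named after its values were seen, its relative Irs2 was higher (2.8 and 3.03 against 4.44 and 4.42 RPKM; log2 fold change 0.40). The receptor gene Insr itself did not pass (log2 fold change 0.02, limma adjusted p 0.6).

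Of 26 tested GLUT4 vesicle cargo and fusion genes, 6 were higher and 11 lower, 65.4% called beside 50.3% of all tested genes, and the list's median was -0.12 on the log2 scale. The split depended on the scaling, with 8 higher and 9 lower unscaled. Tusc5 (higher) reached the filter in Nf1-KO only and Myo5a (lower) in Het only, so both had to differ. The 6 became 3 with no filter and between 2 and 3 when any 1 library was left out. Tfrc, the transferrin receptor that recycles through endosomes, showed the largest change of the list, from 47.33 ± 0.0354 to 20.49 ± 0.212 RPKM (SD, n = 2), a difference of -1.26 on the log2 scale (limma adjusted p 6.6e-07). Exoc7, a subunit of the exocyst that tethers vesicles at the membrane, fell from 9 ± 0.113 to 5.235 ± 0.0919 RPKM. Sort1, the sorting receptor sortilin that helps form GLUT4 vesicles, fell from 10.89 ± 0.198 to 8.55 ± 0.24 RPKM.

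Few of the other Rab genes passed the test. Of 11 other traffic Rabs and their activators, 1 was higher, 1 lower and 9 did not pass, 18.2% called beside 50.3% of all tested genes. Unscaled, 3 were higher, and 2 were with median scaling or the filter of 1 RPKM in every library. The higher one was Rab14, from 23.67 ± 0.269 to 29.65 ± 0.509 RPKM (SD, n = 2), and the lower one Rab28, from 37.75 ± 0.163 to 35.26 ± 0.198 RPKM. In the Rac1 and Ral arm, a route to GLUT4 movement beside Akt, 1 of 9 tested genes was higher and 3 lower, 44.4% called beside 50.3% of all tested genes; unscaled 3 were higher, and 2 were with median scaling or without Het replicate 1. Ralgapa1 and Ralgapb, subunits of the complex that switches Ral off, fell by 0.51 and 0.34 on the log2 scale (limma adjusted p 1.8e-04 and 0.0011). The higher gene was Pak1, a kinase activated by Rac1, at 0.48 and 0.47 against 1.5 and 1.34 RPKM, named after its values were seen. Pak1 reached the filter in Nf1-KO only, where it is high, and so had to differ; Tiam1, called lower, reached it in Het only.

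Of 29 tested other genes of the TBC-domain Rab GAP family, 4 were higher, 6 lower and 19 did not pass, 34.5% called beside 50.3% of all tested genes, with a median log2 fold change of -0.03. The split moved to 7 higher and 3 lower unscaled, to 2 higher without Nf1-KO replicate 2, and to 3 lower with no filter, without Het replicate 2 or without Nf1-KO replicate 1. The largest changes were a fall of Tbc1d19 from 5.395 ± 0.0636 to 3.31 ± 0.0141 RPKM (SD, n = 2; log2 fold change -0.65, limma adjusted p 7.3e-05), a fall of Tbc1d10b by 0.35 on the log2 scale and a rise of Tbc1d10c by 0.35. The rise of Tbc1d10c did not pass with no filter (limma adjusted p 0.056) or without Nf1-KO replicate 2 (0.051).

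Of 11 tested regulators of uptake genes, 5 were higher and 3 lower, 72.7% called beside 50.3% of all tested genes, and the list's median was 0.06 on the log2 scale. Unscaled, 6 were higher and 1 lower, and 1 was lower without Nf1-KO replicate 2. Klf15, a transcription factor that acts with MEF2A on the Slc2a4 promoter, rose from 15.64 ± 0.24 to 32.53 ± 0.672 RPKM (SD, n = 2), a difference of 0.92 on the log2 scale (limma adjusted p 3.5e-06). Hdac5, a histone deacetylase that restrains MEF2, rose from 14.63 ± 0.134 to 21.60 ± 0.0283 RPKM. Txnip, an arrestin-like protein that lowers surface GLUT1 and GLUT4, fell from 107.6 ± 1.13 to 81.55 ± 0.608 RPKM, a difference of -0.49 on the log2 scale (limma adjusted p 1e-05).

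Among the enzymes that add or remove the phosphate of glucose outside Hk1 and Hk2, G6pc3, the widely expressed glucose 6-phosphatase, fell from 22.43 ± 0.0141 to 16.91 ± 0.191 RPKM (SD, n = 2), a difference of -0.48 on the log2 scale (limma adjusted p 4.3e-05).

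**Figure D4:**
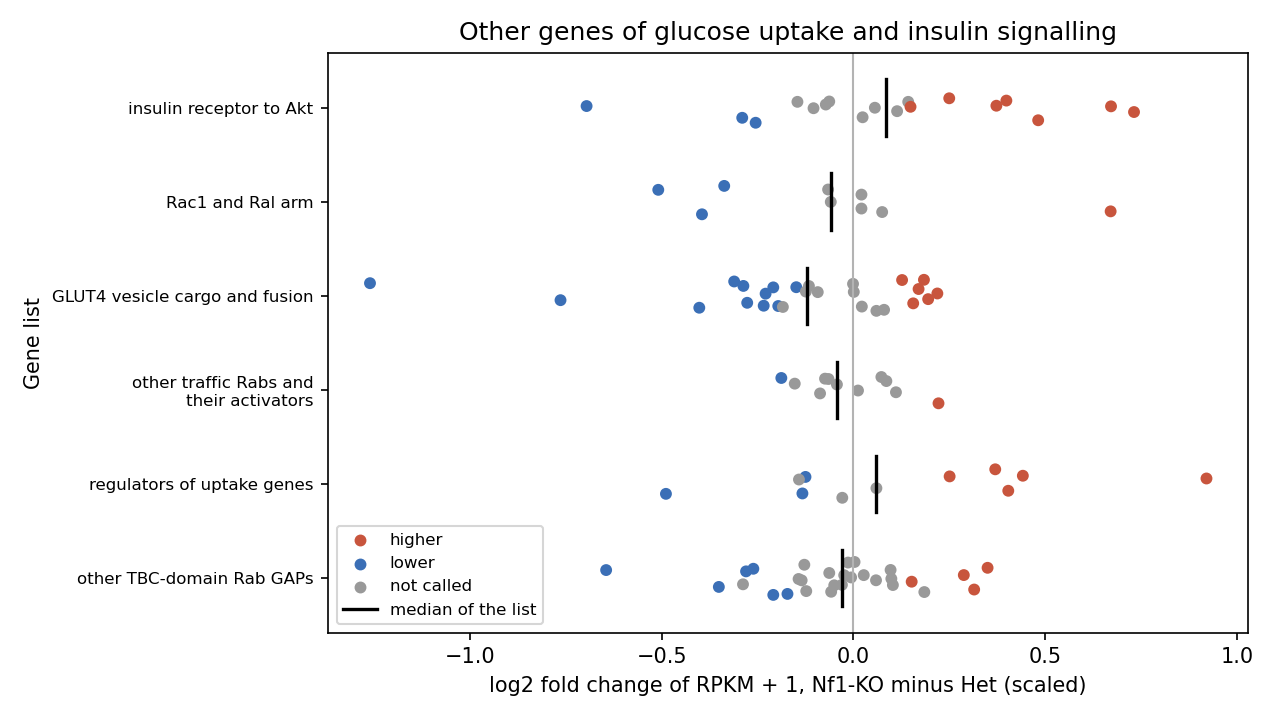
Log2 fold change of RPKM + 1 (scaled), Nf1-KO minus Het, of every tested gene in 6 lists of the pathway (the other sugar transporters, none of which could be tested, and the enzymes of glucose phosphorylation are not drawn), coloured by whether it passed the limma threshold higher, lower or not, with a bar at the median of each list. List medians lie between -0.12 and 0.08, and single genes such as Tfrc at -1.26 and Klf15 at 0.92 lie well away from them.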

How the data were processed

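Total RNA of 4 libraries was sequenced by the authors from a TruSeq RNA version 2 preparation, per the labels' protocols. The submitters' processing notes name STAR 2.4.2a, DESeq2 and the mouse build mm9; the counting program, annotation and strandedness are not given in the sources used here. The authors deposited 1 RPKM value per gene and library; the unit was read from the values. A deposited comparison table, laid out like DESeq2 output per the file headers, gives a mean signal (normalized counts), a log2 fold change with its standard error, a test score and p-values.

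Of 34682 rows, 33 named by a number were left out, and the highest-mean row was kept per name. The filter asked for 0.5 RPKM or more in 2 or more libraries. Libraries were scaled by the mean of their log ratios to 1 of them, after dropping the outer 30% of ratios and 5% of levels on each side, with factors of 0.968, 0.967, 1.03 and 1.03. Genes were tested on log2(RPKM + 1) with limma 3.58.1 in R 4.3.3 with a variance trend. The fit was run on simulated libraries in which far fewer genes differed than were called here. That run therefore cannot check the scaling or the error rate in these data. Fold changes on this scale understate the change of low genes. P-values were two-sided and adjusted by Benjamini-Hochberg over all 10690 genes. Depth was taken as the number of reads that brought low values of 1465 genes with transcripts under 400 bases (GENCODE M21) closest to whole reads; these are estimates, and no count test was run on them.

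The members and lists were chosen with earlier results of these data known. Named were the members, Nf1, up to 3 genes per list with the largest change among those called with a mean of at least 1 RPKM, and the 5 genes most like Tbc1d4. Some marker and list genes, among them Myh4, Irs2 and Pak1, were named outside this rule. Of the list names, Trarg1 was found under its older name Tusc5. The alternatives changed the pseudocount, filter, scaling, variance trend, rows per name and replicate block, or left out 1 library. For the list of glucose phosphorylation enzymes, 1 gene is not reported here and no counts are given.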

Additional observations from a re-analysis of the deposited data

How the results depend on the processing

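There were 717 values from 13 alternative settings, and 666 kept their reading. For genes this meant direction and side of the threshold, and for counts staying within 1.5 times. Tbc1d4 and its ratio to Tbc1d1 had to stay within 1 standard error, and the other ratios had only to keep their sign. Some values had little room to change. The list of other sugar transporters held no gene past the filter, and summing rows hardly touches members with a single row. The 5382 genes called ran from 4553 with no filter to 5643 unscaled, and from 4021 to 4112 with 1 library left out. Between 4 and 6 of the 9 members other than Tbc1d4 were called in every setting that kept all 4 libraries. In these settings Tbc1d1 and Lnpep were always called, and so was Slc2a3 where it was tested. Slc2a3 passed the filter of 0.5 RPKM only through Het, where it is high. Signs turned only for genes near 0: unscaled, Slc2a4 went to 0.02 and Hk2 to 0.04; Hk1 went to -0.0021 with no filter, and ran from -0.06 to 0.07 on leaving out 1 library (-0.02 without Het replicate 2, -0.06 without Nf1-KO replicate 1). The log2 ratio of Hk1 to Hk2 ran from -0.05 (without Nf1-KO replicate 1) to 0.17 with 1 library left out. The cause was not tested.

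Sharing a replicate number did not make libraries deviate together (Pearson's r over genes of -0.0179), so the numbers give no pairing. A replicate block left 5351 genes called, 6 of them members other than Tbc1d4, and of the named genes Nf1 lost its call (-0.18, limma adjusted p 0.054).

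The 2 libraries a group limit what can be seen in genes near 1 RPKM, such as Hk1, Slc2a3 and Nf1.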
